A study of Schizosaccharomyces pombe with 24 samples.

Results

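The fission yeast *htb1-D67N*, in which an aspartate of histone H2B is replaced by asparagine, was compared with WT by RNA-seq. The comparison used 6 of the 24 libraries of the series, 3 of *htb1-D67N* and 3 of WT, chosen by the genotype in the sample labels. The deposited table held counts for 5195 genes, of which 59 were transcripts assembled by the authors without a known gene. The series has 8 genotypes with 3 libraries each, namely *htb1-D67N*, the H2B mutants *htb1-E112K*, *htb1-G52D*, *htb1-E75Q*, *htb1-P102L* and *htb1-E34K*, a strain labelled for loss of *set1*, and WT. The *htb1-D67N* strain was h+ *ade6-M210 leu1-32 ura4-D18* with a *kanMX6* marker behind the mutant *htb1*, and the WT strain was h+ *ade6-M216 leu1-32 ura4-D18* without that marker. Cultures were grown at 30 °C, and each genotype was listed as 1 strain. The marker, the *ade6* allele and the H2B change therefore cannot be told apart between these strains. The other 5 H2B mutants served as a further comparison. Of these *htb1-E112K*, *htb1-E75Q* and *htb1-E34K* are listed with the same mating type, marker and *ade6* allele as *htb1-D67N*, while *htb1-G52D* and *htb1-P102L* are listed as h- with neither the marker nor a known *ade6* allele.

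Histone H2B pairs with H2A, and H2A-H2B dimers together with H3 and H4 make up the nucleosome around which DNA is wrapped. In *Schizosaccharomyces pombe* all canonical H2B comes from *htb1*, so the mutant protein is present in every nucleosome that holds H2B. H2B is also the substrate of a monoubiquitination made by the ubiquitin-conjugating enzyme Rhp6 with the ligases Brl1 and Brl2 and the small subunit Shf1, and removed by Ubp8, which works in a module of the SAGA coactivator with Sgf73, Sgf11 and Sus1. The modification is coupled to transcription elongation and to methylation of histone H3 by the Set1 complex. In humans H2B changes of this kind are found in tumours.

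The total count was between 19353141 and 21457605 in the *htb1-D67N* libraries and between 22578239 and 23471642 in the WT libraries. The third WT library went against its genotype. It held 865 counts of *ura4*, the orotidine phosphate decarboxylase gene that *ura4-D18* removes, while the 3 *htb1-D67N* libraries and the other 2 WT libraries held 0. It also held 103 counts of *mat1-Mc*, a mating-type gene of M cells, against 0 in the other 5 libraries. Results that rested on this library are given with and without it. The third *htb1-D67N* library had a scaling factor (TMM, the trimmed mean of M values) of 1.47, against 0.973 and 1.04 in the other *htb1-D67N* libraries and 0.816 to 1.01 in WT.

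Many more genes were higher than lower in *htb1-D67N*. A gene was called when edgeR's quasi-likelihood test gave a Benjamini-Hochberg adjusted p under 0.05 and the fold change was at least 2. By this rule 524 of 4862 genes tested (10.8%) were higher in *htb1-D67N* than in WT and 218 (4.48%) were lower. Among them 153 were higher and 20 lower by at least 4-fold, 56 higher and 9 lower by at least 8-fold, and 20 higher and 6 lower by at least 16-fold. In all 6 fits that left out 1 library, 349 genes were called higher and 135 lower. Without the third WT library 511 genes were called higher and 253 lower. The split depended on the scaling. Scaled to total counts in place of TMM, 879 genes were called higher and 48 lower, so that 94.8% of calls were higher in *htb1-D67N*, against 70.6% with TMM. Over all genes tested the median log2 fold change was 0.08 with TMM and 0.48 with total counts, against which the change of each gene is to be read. All *htb1-D67N* libraries were above all WT libraries for 27.4% of the genes tested and below them for 22.3%. Groups that did not overlap were thus common. RNA came from whole cultures, in which fewer cells of a kind and less RNA per cell cannot be told apart.

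**Figure D1:**
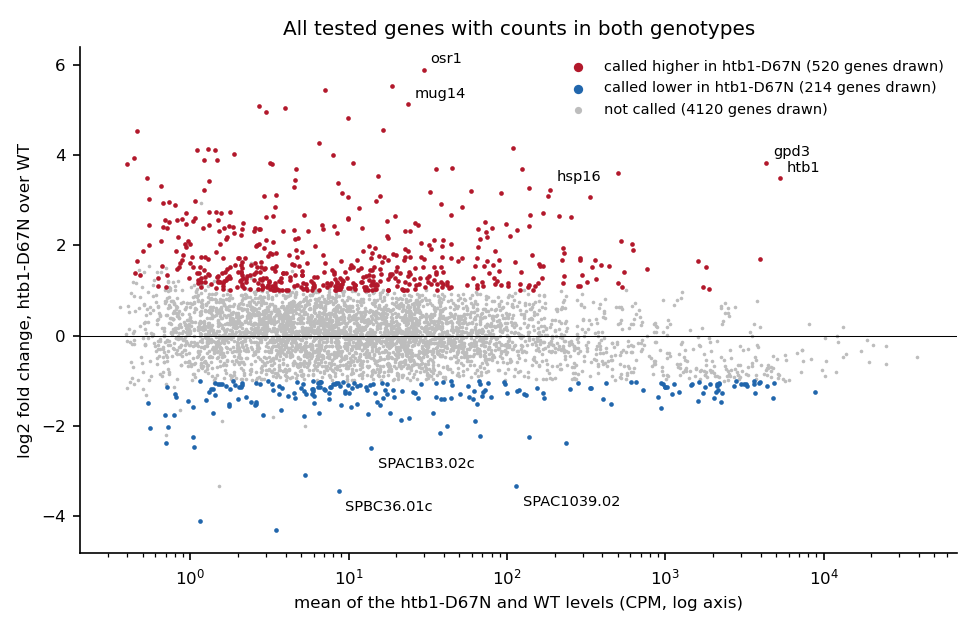
Log2 fold change of *htb1-D67N* over WT (vertical) against the mean level in CPM on a log axis (horizontal), with 1 point for each of 4854 tested genes; the 8 genes with 0 counts in every library of one genotype are not drawn. Called genes are coloured, and the largest changes lie above 0, with *osr1* at 5.88 and *htb1* at 3.48.

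*htb1* itself was among the genes that rose most at high level. Its level was 10811, 10905 and 7457 CPM (counts relative to the library total, scaled by TMM) in the *htb1-D67N* libraries, against 801, 876 and 931 CPM in the WT libraries. The groups were far apart, and the log2 fold change was 3.48 ± 0.26 (SE, n = 3 each; adjusted p = 5.69e-06). *hta1*, the H2A gene that is transcribed divergently from *htb1*, had 461, 446 and 319 CPM in *htb1-D67N* and 306, 293 and 359 CPM in WT. These ranges overlapped, and the log2 fold change of 0.36 ± 0.19 did not pass the test (adjusted p = 0.163). Of 11 core histone genes and variants tested, *htb1* alone was called (9.09% against 10.8% of all genes). The 10 others lay between -0.32 for *hht3*, an H3 gene, and 0.93 for *cnp1*, the centromeric H3 variant. Of 14 genes for histone chaperones and regulators of histone genes 0 were called by edgeR and 0 by DESeq2, while 2 were higher and 1 lower at an unadjusted p under 0.05, and their median log2 fold change was 0.16 (0.08 over all genes). The part of the *kanMX6* marker in the *htb1* level was not tested in the comparison with WT. In a scaling over all 24 libraries the mean *htb1* level was 10727 CPM in *htb1-D67N*, against 6554 CPM in *htb1-E75Q*, 5455 CPM in *htb1-E112K* and 997 CPM in *htb1-E34K*, which carry the same marker, and 1553 CPM in *htb1-P102L*, 1050 CPM in *htb1-G52D* and 1004 CPM in WT, which are listed without it. Of the 4 mutants with the marker 3 were thus several times above WT, and the marker and the H2B change cannot be told apart in them.

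Of 13 genes of the H2B ubiquitin pathway tested, 1 was called higher (7.69%, below the 10.8% of all genes) and 3 were called lower (23.1% against 4.48%), with a median log2 fold change of 0.01. With total counts 4 were called higher and 1 lower. *brl1*, a ligase subunit, was at 4.45, 4.44 and 6.6 CPM in *htb1-D67N* and at 0.78, 0.752 and 0.968 CPM in WT (log2 fold change 2.62 ± 0.28, adjusted p = 7.12e-05). Every *htb1-D67N* library was above every WT library. Its partner *brl2* had a log2 fold change of 1.20 ± 0.47 (adjusted p = 0.0698) and *rhp6*, the conjugating enzyme, one of 0.01 ± 0.15 (adjusted p = 0.972), and neither passed the test. *shf1* had 0 counts in all 3 *htb1-D67N* libraries, against 66, 42 and 59 counts in WT. This made it at least 65.5-fold lower when 3 counts over the group are taken as the floor. *shf1* lies wholly inside the antisense gene *plc1*, a phospholipase C gene, whose own log2 fold change was 2.32 (adjusted p = 7.62e-05). Strand use in the counting was not given in the sources used here, and without it the reads of such a pair cannot be told apart.

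In the deubiquitination module, *sus1* was at 1.15, 1.1 and 1.02 CPM in *htb1-D67N* and at 2.86, 2.31 and 2.24 CPM in WT (log2 fold change -1.18 ± 0.27, adjusted p = 0.00719). *sgf73* was at 3.11, 3.34 and 2.91 CPM in *htb1-D67N* and at 8.06, 5.53 and 7.22 CPM in WT (-1.15 ± 0.22, adjusted p = 0.00218). The groups did not overlap for either gene, but neither was called when libraries were scaled to total counts. *ubp8*, the protease, had a log2 fold change of 0.66 ± 0.23 (adjusted p = 0.0423), short of 2-fold. In the core of SAGA 1 of 10 genes was called (10%, near the 10.8% of all genes), *tra1*, the scaffold that activators bind (1.38 ± 0.31, adjusted p = 0.00593). With a gene-length offset it was not called. In the Set1 complex 1 of 6 was called, *swd2*, which was lower (16.7% against 4.48% of all genes). Its log2 fold change was -1.13 ± 0.25 (adjusted p = 0.00638), and it was not called with total counts.

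The largest rises were in genes that WT hardly transcribed. *osr1*, annotated as a short chain dehydrogenase, was at 70.6, 55.7 and 49.2 CPM in *htb1-D67N* and at 0.832, 0.859 and 1.23 CPM in WT (log2 fold change 5.88 ± 0.23, adjusted p = 1.50e-07). *mug14*, an adducin family gene first named for its upregulation in meiosis, was at 43.8, 46.9 and 47.2 CPM in *htb1-D67N* and at 1.3, 1.77 and 0.924 CPM in WT (5.12 ± 0.22, adjusted p = 1.98e-07). The replicates of each genotype lay close together for both genes and far from the other genotype. *SPAC11D3.01c*, a conserved fungal gene, was at 36.5, 47.9 and 25.2 CPM in *htb1-D67N* and at 0.52, 0.645 and 1.14 CPM in WT (5.53 ± 0.33). *prl65*, annotated as coding for a conserved fungal protein, was at 16, 14.3 and 11.3 CPM in *htb1-D67N* and at 0.208, 0.483 and 0.264 CPM in WT (5.44 ± 0.31). *ght3*, a hexose transporter gene, was at 6.94, 6.41 and 9.68 CPM in *htb1-D67N* and at 0.208, 0.215 and 0.264 CPM in WT (5.03 ± 0.32). All of these stood apart from WT in each library, as did *SPAC9G1.14*, which is annotated as dubious (5.08 ± 0.37).

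In 4 further genes WT had 0 counts, so that a fold change has only a lower bound. *shu1*, a heme import gene, had 34, 48 and 84 counts in *htb1-D67N*, which is at least 47.1-fold higher. *str3*, a siderophore-iron transporter gene, had 23, 32 and 46 counts in *htb1-D67N* and was at least 28.6-fold higher. *SPAC869.06c*, a predicted cation-binding protein gene, was at least 25.8-fold higher and the newly assembled transcript *MSTRG.2412* at least 25.2-fold higher. Each of the 4 was present in all 3 *htb1-D67N* libraries.

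**Figure D2:**
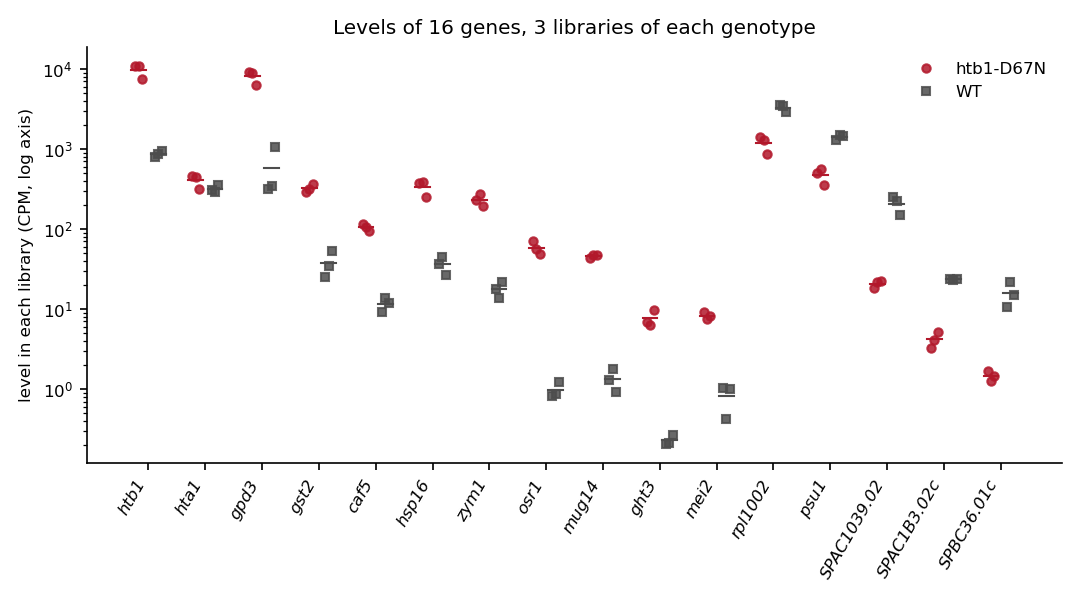
Level of 16 genes in each library in CPM on a log axis, with *htb1-D67N* left of WT, 1 point a library. In *osr1* the *htb1-D67N* libraries lie between 49.2 and 70.6 CPM and the WT libraries between 0.832 and 1.23 CPM, and in *SPAC1039.02* the *htb1-D67N* libraries lie between 18.2 and 22.5 CPM and the WT libraries between 151 and 248 CPM.

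Most genes of the general stress response rose. In fission yeast the MAP kinase Sty1 and the transcription factor Atf1 induce a common set of genes under most stresses, and their protein products protect the cell from oxidation, heat and osmotic change. Of 10 genes of this response, 7 were called higher and 0 lower (70% against 10.8% of all genes tested), with a median log2 fold change of 1.51, against 0.08 over all genes. *zym1*, a metallothionein gene, was at 230.2, 272 and 193 CPM in *htb1-D67N* and at 18, 13.6 and 22.1 CPM in WT (3.69 ± 0.22, adjusted p = 1.21e-06). *hsp16*, a small heat shock protein gene, was at 378, 382 and 253 CPM in *htb1-D67N* and at 36.4, 45.3 and 26.5 CPM in WT (3.23 ± 0.24, adjusted p = 5.67e-06). Neither gene had a library that reached into the other genotype. *ntp1* (trehalase, 1.75), *tps1* (trehalose phosphate synthase, 1.68), *gpx1* (glutathione peroxidase, 1.54), *hsp9* (1.48) and *pyp2*, a phosphatase that acts on Sty1 (1.31), were the other 5 called. *ctt1*, the catalase gene, had 479, 393 and 299 CPM in *htb1-D67N* and 230.0, 248 and 142 CPM in WT and fell short of 2-fold (0.92 ± 0.24, adjusted p = 0.0129). In the gene lists given here with 0 members called lower by edgeR, DESeq2 also called 0 lower, except for 1 of the glucose repression genes and 1 of the *mug* and *meu* genes, and at most 3 members were lower at an unadjusted p under 0.05 (11 of the *mug* and *meu* genes).

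In the pathway that controls this response the kinase gene *sty1* had a log2 fold change of 0.04 ± 0.17 (adjusted p = 0.866) and *atf1* one of 0.68 ± 0.23 (adjusted p = 0.0411). Of the 16 genes of the pathway list, which holds *osr1* as well, 5 were called higher (31.2% against 10.8% of all genes) and 0 lower. The called kinase genes were *wis4* and *win1*, MAP kinase kinase kinases, with log2 fold changes of 1.34 and 1.17, and *mak1*, a histidine kinase gene, with 1.23. Without the third *htb1-D67N* library 2 of the 16 were called and *wis4* was at 0.97. With a gene-length offset 2 of the 16 were called, *osr1* and *pyp2*, and the calls of *wis4*, *win1* and *mak1* were lost.

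Among 25 antioxidant genes 8 were called higher (32% against 10.8% of all genes) and 1 lower (4% against 4.48%), with a median log2 fold change of 0.67. *gst2*, a glutathione S-transferase gene, was at 293, 315 and 362 CPM in *htb1-D67N* and at 25.2, 34.9 and 52.9 CPM in WT (3.10 ± 0.26, adjusted p = 1.13e-05). *caf5*, a polyamine family efflux transporter gene, was at 117, 107 and 94.7 CPM in *htb1-D67N* and at 9.2, 13.7 and 11.9 CPM in WT (3.20 ± 0.18, adjusted p = 9.11e-07). *gcs1*, the glutamate-cysteine ligase gene of glutathione synthesis, had 2338, 2350 and 3103 counts in *htb1-D67N* and 434, 390 and 691 counts in WT (109 ± 2.25 and 24.6 ± 5.07 CPM, SD, log2 fold change 2.15 ± 0.17, adjusted p = 6.53e-06). In these genes the lowest *htb1-D67N* library was above the highest WT library, as it was for 27.4% of all tested genes. *srx1*, the sulfiredoxin gene, rose by 2.31 and *grx1*, a glutaredoxin gene, by 1.84 on the log2 scale. *obr1*, an abundant flavodoxin-like gene, was at 7476, 6229 and 4504 CPM in *htb1-D67N* and at 1904, 2032 and 1697 CPM in WT (1.69 ± 0.25, adjusted p = 5.57e-04). The member that was lower was *gst1*, at 0.479, 0.366 and 0.526 CPM in *htb1-D67N* and at 1.3, 1.07 and 1.06 CPM in WT (-1.30 ± 0.36, adjusted p = 0.0173). Its call was lost without the first WT library (-1.23) or without the second *htb1-D67N* library (-1.17), and with total counts. The gene of the transcription factor Pap1, which drives many of these genes under oxidative stress, had a log2 fold change of 0.76 ± 0.15 (*pap1*, adjusted p = 0.00316), short of 2-fold.

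In the KEGG set of glutathione metabolism 8 of 24 genes were called higher (33.3% against 10.8% of all genes) and 2 lower (8.33% against 4.48%), with a median of 0.70. The set includes enzymes that supply NADPH. *zwf2*, a glucose-6-phosphate dehydrogenase gene, was at 417, 311 and 151 CPM in *htb1-D67N* and at 61.9, 45 and 27 CPM in WT (2.72 ± 0.38, adjusted p = 3.65e-04). *zwf1*, the main gene for this enzyme, was at 574, 524 and 431 CPM in *htb1-D67N* and at 182, 181 and 171 CPM in WT (1.52 ± 0.17, adjusted p = 8.58e-05). Both sets were apart. *tal1*, the transaldolase gene of the pentose phosphate pathway, rose by 1.52 ± 0.25 on the log2 scale (adjusted p = 0.00105).

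The DJ-1 and glyoxalase family, which detoxifies methylglyoxal, had 6 of 9 members called higher (66.7% against 10.8% of all genes) and 0 lower, with a median log2 fold change of 2.09. *hsp3103* was at 4.98, 5.26 and 6.88 CPM in *htb1-D67N* and at 0.832, 0.645 and 1.23 CPM in WT (2.64 ± 0.29, adjusted p = 8.58e-05). *hsp3104* was at 17.5, 20.9 and 22.5 CPM in *htb1-D67N* and at 4.16, 4.89 and 2.73 CPM in WT (2.38 ± 0.22, adjusted p = 2.63e-05). The other called members were *hsp3101* (2.31), *hsp3102* (2.17), *hsp3105* (2.09) and *sdj1* (1.72). These genes are alike in sequence, and how reads of near-identical copies were divided was not given in the sources used here.

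For trehalose and glycerol metabolism, which supplies stress protectants, 6 of 10 genes were called higher (60% against 10.8% of all genes) and 0 lower (median 1.37). *gld1*, the glycerol dehydrogenase gene, was at 335, 256 and 131 CPM in *htb1-D67N* and at 63.7, 28.3 and 20.8 CPM in WT (2.68 ± 0.43, adjusted p = 8.72e-04). Its replicates spread by more than 2-fold in both genotypes without an overlap. The dihydroxyacetone kinase genes *dak2* and *dak1* rose by 2.38 and 1.40 on the log2 scale. Of 19 heat shock and chaperone genes 6 were called higher (31.6%) and 0 lower (median 0.75), among them *SPCC338.06c*, of the Hsp20 family (1.52), and *ssa1*, an Hsp70 gene (1.25). Proteasome genes had a median log2 fold change of 0.38, and 0 of 36 were called by edgeR or DESeq2 (10.8% of all genes were called higher by edgeR). Of the 36, 16 were higher in *htb1-D67N* at an unadjusted p under 0.05, and 13 at an adjusted p under 0.05. Of all 4862 genes tested 1244 and 992 were higher by these measures.

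Of 8 hexose transporter genes 5 were called higher (62.5% against 10.8% of all genes) and 0 lower (median 1.54). Besides *ght3*, *ght5*, the main high-affinity transporter gene, was at 1084, 1022 and 846 CPM in *htb1-D67N* and at 362, 263 and 168 CPM in WT (1.90 ± 0.27, adjusted p = 3.89e-04). *inv1*, the secreted invertase gene, was at 44.6, 37.7 and 39 CPM in *htb1-D67N* and at 6.76, 6.71 and 10.8 CPM in WT (2.32 ± 0.20, adjusted p = 1.61e-05). *fbp1*, the gluconeogenic fructose bisphosphatase gene, was at 23.2, 22.7 and 23.5 CPM in *htb1-D67N* and at 8.47, 4.35 and 5.15 CPM in WT (1.95 ± 0.23, adjusted p = 1.18e-04). These transcripts are known targets of glucose repression, and no library of one genotype reached the other. In the glucose repression list 5 of 17 genes were called higher (29.4% against 10.8% of all genes) and 0 lower (median 0.50), and 12 were not called. Without the second WT library, or without the third *htb1-D67N* library, 3 of the 17 were called.

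Single isozymes of glycolysis rose while the pathway as a whole was centred at 0. Of 31 genes of the KEGG glycolysis and gluconeogenesis set 6 were called higher (19.4% against 10.8% of all genes) and 1 lower (3.23% against 4.48%). The median log2 fold change was -0.01. *gpd3*, a glyceraldehyde phosphate dehydrogenase gene, was at 9162, 8993 and 6248 CPM in *htb1-D67N* and at 319, 346 and 1047 CPM in WT (3.83 ± 0.47, adjusted p = 1.67e-04). The third WT library was the highest of its group, and without it the log2 fold change was 4.61. *eno102*, an enolase gene, was at 68.1, 68.4 and 66.8 CPM in *htb1-D67N* and at 10.8, 8.75 and 7.57 CPM in WT (2.91 ± 0.16, adjusted p = 9.11e-07). *pdc202*, a pyruvate decarboxylase gene, was the member called lower (-1.29), a call that was lost with total counts. In the citrate cycle set 4 of 22 genes were called higher (18.2%), with *mdh1* (1.17), *cit1* (1.16), *aco1* (1.04) and *idh2* (1.02), and 0 lower. This count was 2 without the second WT library and 1 without the first *htb1-D67N* library. *aco1* was not called with a gene-length offset either.

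Of the 3 galactose genes, which *S. pombe* keeps silent on glucose, 2 were called higher (66.7% against 10.8% of all genes). The list is small, and *gal1*, the galactokinase gene, fell short of 2-fold (0.91 ± 0.22, adjusted p = 0.00945). *gal10*, the epimerase gene, was at 11.3, 14 and 11.9 CPM in *htb1-D67N* and at 1.25, 0.752 and 0 CPM in WT (4.26 ± 0.58, adjusted p = 3.16e-04). It lies 93.7% inside an antisense gene, *SPBPB2B2.11*, which was at or below 1.82 CPM in all 6 libraries. Its log2 fold change was 5.10 without the first WT library and 3.62 without the third. *gal7*, the uridylyltransferase gene, was at 4.36, 5.31 and 5.4 CPM in *htb1-D67N* and at 2.03, 1.5 and 2.02 CPM in WT (1.44 ± 0.24, adjusted p = 0.00104).

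Of 16 iron genes 6 were called higher (37.5% against 10.8% of all genes) and 0 lower (median 0.74). Apart from *shu1* and *str3*, these were genes of reductive iron uptake, *fio1* and *fip1*, the siderophore transporter gene *str1* and *sib1*, a siderophore synthesis gene. *fip1*, the iron permease gene, was at 137, 134 and 93.9 CPM in *htb1-D67N* and at 20.8, 22.8 and 30.5 CPM in WT (2.30 ± 0.20, adjusted p = 1.68e-05). *fio1*, its oxidase partner, was at 50.6, 53.7 and 35 CPM in *htb1-D67N* and at 7.07, 6.77 and 11.4 CPM in WT (2.46 ± 0.24, adjusted p = 3.31e-05). The genes of the pair stood apart from WT by a like amount. *str1* rose by 1.75 and *sib1* by 1.11 on the log2 scale.

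**Figure D3:**
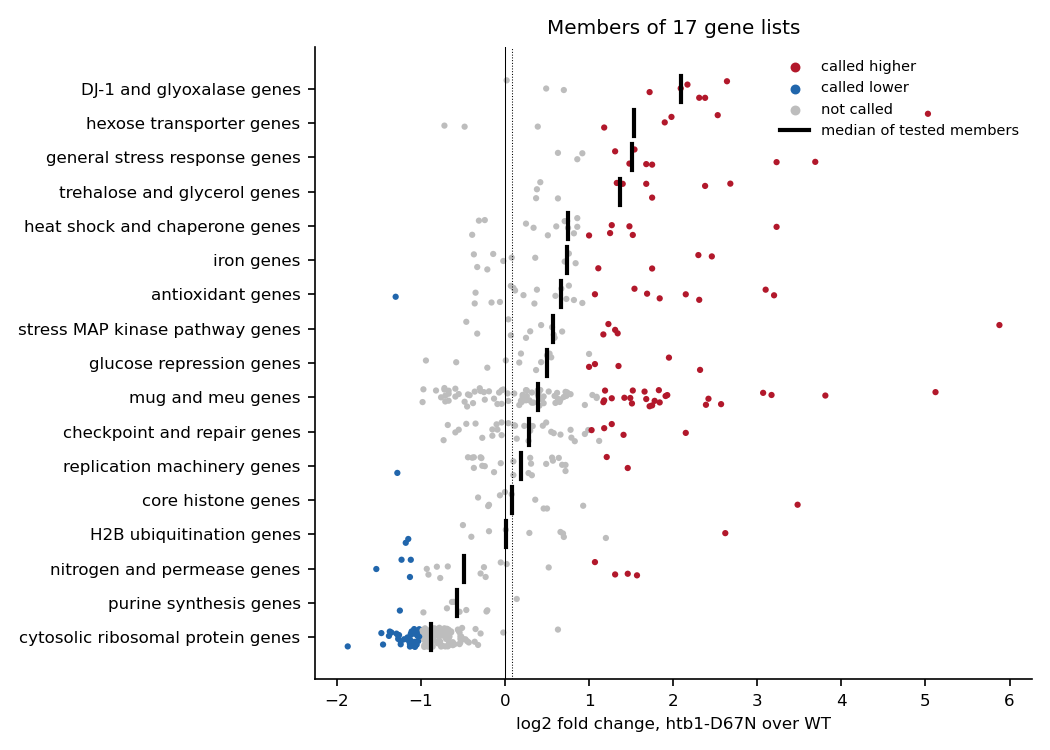
Log2 fold change of *htb1-D67N* over WT for the members of 17 gene lists, 1 point a gene, with the median of each list marked; genes with 0 counts in every library of one genotype are not drawn. The DJ-1 and glyoxalase list has a median of 2.09 and the general stress list one of 1.51, while the cytosolic ribosomal proteins have one of -0.88.

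Meiotic and mating genes were partly higher. *mei2*, the RNA-binding protein gene that starts meiosis, was at 9.15, 7.42 and 8.1 CPM in *htb1-D67N* and at 1.04, 0.43 and 1.01 CPM in WT (3.29 ± 0.30, adjusted p = 2.19e-05). *mei4*, a forkhead factor gene of middle meiosis, was at 3.21, 3.11 and 3.09 CPM in *htb1-D67N* and at 1.2, 1.13 and 1.01 CPM in WT (1.49 ± 0.25, adjusted p = 0.00128). Both were apart from WT in every library. *pat1*, the kinase gene that holds Mei2 back, was called higher as well (1.01 ± 0.14, adjusted p = 3.89e-04). In the list of meiotic entry genes and of genes that eliminate meiotic RNA, 14 of 21 members were tested. Of these 6 were called higher (42.9% against 10.8% of all genes) and 3 lower (21.4% against 4.48%). On the elimination side *rrp6*, a nuclear exosome gene, rose by 1.60 and *erh1*, a partner of the elimination factor Mmi1, fell by 1.71 on the log2 scale. *erh1* was at 0.575, 0.87 and 0.526 CPM in *htb1-D67N* and at 2.81, 1.5 and 2.11 CPM in WT (adjusted p = 0.0043). *mcp5*, a dynein anchor gene of meiotic prophase, was at 1.63, 1.01 and 1.16 CPM in *htb1-D67N* and at 4.05, 2.69 and 2.9 CPM in WT (-1.35 ± 0.30, adjusted p = 0.00545), a call lost with total counts.

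Of the genes named *mug* or *meu* for their upregulation in meiosis, 97 of 123 were tested. Of the 97, 24 were called higher (24.7% against 10.8% of all genes) and 0 lower (median 0.39). After *mug14* the largest were *mug168*, at 5.65, 6.68 and 5.93 CPM in *htb1-D67N* and 0.364, 0.483 and 0.44 CPM in WT (3.81 ± 0.27), and *mug108* (3.17 ± 0.36), which lies inside the antisense gene *rga3* (partner log2 fold change 2.98). In the pheromone and mating list 18 of 24 genes were tested, of which 3 were called higher (16.7%) and 1 lower (5.56%). *fus1*, the formin gene of cell fusion, was at 2.73, 3.57 and 4.7 CPM in *htb1-D67N* and at 0.728, 0.645 and 0.572 CPM in WT (2.50 ± 0.31, adjusted p = 1.96e-04). *map1*, a factor gene for P-cell genes, was at 1.96, 1.79 and 1.79 CPM in *htb1-D67N* and at 0.364, 0.376 and 0.176 CPM in WT (2.60 ± 0.38, adjusted p = 5.22e-04). Both genes were low in WT and apart from *htb1-D67N*. *spk1*, the pheromone MAP kinase gene, rose by 3.09 ± 0.35 on the log2 scale (adjusted p = 9.66e-05), with 77.3% of it inside the antisense gene *ups1*, whose log2 fold change was 0.23.

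Among cell cycle genes, the G1/S and ribonucleotide reductase list had 3 of 15 genes called higher (20% against 10.8% of all genes) and 0 lower (median 0.39). In the list of cyclins and mitotic entry genes 2 of 16 were called higher (12.5%) and 1 lower (6.25% against 4.48% of all genes). The gene called lower was *cig1*, a B-type cyclin gene, at 20.2, 22.1 and 18 CPM in *htb1-D67N* and at 53.5, 56.7 and 43.3 CPM in WT (-1.35 ± 0.15, adjusted p = 1.08e-04), and it was not called with total counts. *cdt1*, the replication licensing factor gene, was at 3.06, 4.17 and 5.33 CPM in *htb1-D67N* and at 0.884, 0.806 and 0.836 CPM in WT (2.31 ± 0.29, adjusted p = 2.17e-04). *cig2*, the S phase cyclin gene, was at 10.9, 10.4 and 12.3 CPM in *htb1-D67N* and at 3.17, 5.05 and 8.1 CPM in WT (1.04 ± 0.28, adjusted p = 0.016). The *cig2* groups were apart, with 10.4 CPM as the lowest *htb1-D67N* library and 8.1 CPM as the highest WT library, and its call was lost without the first WT library (0.73), the second WT library (0.95) or the third *htb1-D67N* library (0.95). *orc1*, an origin recognition gene, rose by 1.46 ± 0.18 and *pol1*, the polymerase alpha gene, by 1.21 ± 0.28 on the log2 scale. The *pol1* call was lost without the first WT library (0.95), and neither *pol1* nor *cig2* was called with a gene-length offset. *psf3*, a gene of the GINS helicase complex, was at 2.06, 2.79 and 2.98 CPM in *htb1-D67N* and at 7.64, 6.98 and 4.53 CPM in WT (-1.28 ± 0.26, adjusted p = 0.00354), and was not called with total counts. In all, 2 of 26 replication genes were called higher and 1 lower, shares (7.69% and 3.85%) below those of all genes.

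Of 38 checkpoint and repair genes tested 5 were called higher (13.2% against 10.8% of all genes) and 0 lower, with a median of 0.28. *rad52*, the recombination mediator gene, was at 15.2, 14.1 and 12.1 CPM in *htb1-D67N* and at 5.09, 5.42 and 6.56 CPM in WT (1.27 ± 0.18, adjusted p = 4.17e-04). *ctp1*, which starts resection of DNA breaks, was at 10.2, 9.57 and 10.7 CPM in *htb1-D67N* and at 3.12, 3.54 and 4.71 CPM in WT (1.41 ± 0.20, adjusted p = 4.81e-04). The replicates of both genes lay close together. *rad3*, the ATR kinase gene, was at 1.92, 1.92 and 4.39 CPM in *htb1-D67N* and at 0.52, 0.967 and 0.396 CPM in WT (2.15 ± 0.45, adjusted p = 0.00434). It lies 66.3% inside the antisense gene *swi1*, whose log2 fold change was -1.76 (adjusted p = 0.0146). Without the third *htb1-D67N* library 3 genes of the list were called.

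Genes of the septum and cell wall went in both directions. *eng1*, a septum glucanase gene, was at 56.6, 61.6 and 55.8 CPM in *htb1-D67N* and at 118, 118 and 187 CPM in WT (-1.28 ± 0.19, adjusted p = 6.00e-04). *adg1*, a cell surface glycoprotein gene, was at 88, 82 and 56.6 CPM in *htb1-D67N* and at 162, 181 and 220.0 CPM in WT (-1.31 ± 0.19, adjusted p = 5.52e-04). Both were lower in every *htb1-D67N* library than in any WT library, though with total counts *eng1* and *adg1* were no longer called. *exg1*, a secreted glucanase gene, rose by 1.17 ± 0.17 and *psu1*, an abundant cell wall protein gene, fell by 1.60 on the log2 scale, to 496, 557 and 357 CPM in *htb1-D67N*, against 1304, 1515 and 1446 CPM in WT.

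Of 20 heterochromatin and RNAi genes 2 were called higher (10%, near the 10.8% of all genes) and 2 lower (10% against 4.48%). *dcr1*, the Dicer gene, was at 3.06, 2.98 and 3.33 CPM in *htb1-D67N* and at 0.78, 0.322 and 0.792 CPM in WT (2.28 ± 0.34, adjusted p = 5.78e-04). *epe1*, which opposes heterochromatin spreading, was at 13.8, 10.9 and 10.1 CPM in *htb1-D67N* and at 4.89, 2.9 and 5.68 CPM in WT (1.36 ± 0.25, adjusted p = 0.00198). Both were above WT throughout, but *epe1* was not called with a gene-length offset. *clr2*, a silencing complex gene, was at 5.51, 5.31 and 6.07 CPM in *htb1-D67N* and at 12.5, 12.9 and 9.42 CPM in WT (-1.04 ± 0.19, adjusted p = 0.00177). Its call was lost without the second WT library (-0.99) and with total counts. The telomere-linked helicase genes, silent under heterochromatin, had 4 of 5 entries called higher, of which *tlh2* was at 11, 8.84 and 7.51 CPM in *htb1-D67N* and at 0, 0.859 and 3.26 CPM in WT (2.67 ± 0.70, adjusted p = 0.0132). Of the 5 entries 2 were called without the second WT library. DESeq2 called 3 of them, but not *tlh2*. Without the third WT library the log2 fold change of *tlh2* was 4.40, without the first it was 2.08, and without the second it was 2.40 and not called. Of 8 *Tf2* retrotransposons tested 2 were called higher (25%) and 0 lower (median 0.43), *Tf2-7* by 1.59 and *Tf2-2* by 2.38 on the log2 scale. The *Tf2-2* call was lost without the first (1.77) or the third (2.15) WT library and without the first (2.14) or the second (2.21) *htb1-D67N* library. It was also lost with a gene-length offset and with DESeq2. Copies of *tlh* and *Tf2* are nearly identical, so that the values of single copies are uncertain.

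Genes of the cytosolic ribosome were lower almost as a block. Of 140 ribosomal protein genes 139 had a lower mean in *htb1-D67N*, and in 129 the *htb1-D67N* libraries were all below the WT libraries, as they were for 22.3% of all tested genes. The median log2 fold change was -0.88, against 0.08 over all genes. Because most changes were just under 2-fold, 41 were called lower (29.3% against 4.48% of all genes) and 0 higher (0 with DESeq2, and 1 at an unadjusted p under 0.05), while 105 were lower with an adjusted p under 0.05. The direction was the same under total counts, with a median of -0.52, but 5 genes were then called. Leaving out the first *htb1-D67N* library gave 86 called lower and leaving out the third gave 18. *rpl1002*, a large subunit gene, was at 1405, 1286 and 863 CPM in *htb1-D67N* and at 3500, 3453 and 2910 CPM in WT (-1.47 ± 0.24, adjusted p = 9.76e-04). *rps2601*, a small subunit gene, was at 1047, 974 and 559 CPM in *htb1-D67N* and at 2712, 2363 and 1985 CPM in WT (-1.45 ± 0.26, adjusted p = 0.0019). Even the highest *htb1-D67N* library was below the lowest WT library in both. The gene with a higher mean was *rps1401*, with a log2 fold change of 0.63 (adjusted p = 0.0645), whose paralogue *rps1402* was at -1.38 (adjusted p = 0.0031). Genes for ribosome assembly moved less, with a median of -0.36 and 1 of 70 called in each direction (1.43%, below the shares of all genes). *set10*, a gene for a methyltransferase of ribosomal proteins, was at 0.335, 0.229 and 0.386 CPM in *htb1-D67N* and at 1.04, 2.2 and 2.16 CPM in WT (-2.47 ± 0.43, adjusted p = 0.00141). It lies 86.5% inside the antisense gene *rid1*, whose log2 fold change was 0.10.

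Purine synthesis genes had a median log2 fold change of -0.57 (-0.20 with total counts). Of these 10 genes 1 was called lower (10% against 4.48% of all genes), *ade5* (-1.25 ± 0.23, adjusted p = 0.00215), a call lost with total counts. *ade6*, the gene with a different allele in each strain, did not reach 2-fold (-0.69 ± 0.17, adjusted p = 0.00955). In the nitrogen and permease list 4 of 20 genes were called higher (20% against 10.8% of all genes) and 5 lower (25% against 4.48%), with a median of -0.49. *isp6*, a vacuolar protease gene induced by nitrogen starvation, was at 708, 653 and 407 CPM in *htb1-D67N* and at 196, 191 and 210.3 CPM in WT (1.57 ± 0.22, adjusted p = 3.52e-04). *ptr2*, a peptide transporter gene, was at 7.28, 9.43 and 7.51 CPM in *htb1-D67N* and at 27, 28.4 and 14.5 CPM in WT (-1.53 ± 0.25, adjusted p = 9.16e-04). *fur4*, the uracil permease gene, fell by 1.23 on the log2 scale and was not called with total counts. Without the third WT library 3 genes of this list were called lower. Among 65 autophagy genes 10 were called higher (15.4% against 10.8% of all genes) and 0 lower (median 0.46), including *atg8*, the autophagosome marker gene, at 21.1, 21.2 and 17.3 CPM in *htb1-D67N* and 6.55, 7.68 and 7.61 CPM in WT (1.45 ± 0.16, adjusted p = 9.13e-05). This count was 6 without the second WT library, 4 without the third *htb1-D67N* library and 3 with a gene-length offset. Of 99 genes for amino acid synthesis 7 were called higher and 4 lower, shares (7.07% and 4.04%) no larger than the 10.8% and 4.48% of all genes. *his1*, the first gene of histidine synthesis, was at 230.2, 226 and 203 CPM in *htb1-D67N* and at 638, 566 and 550.3 CPM in WT (-1.41 ± 0.16, adjusted p = 1.04e-04).

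The largest falls were few, and several concerned genes that overlap a neighbour. *uga1*, the GABA transaminase gene, had 0 counts in *htb1-D67N* and 277, 261 and 279 counts in WT (at least 320.2-fold lower). *ucp6*, a UBA domain protein gene, had 0 counts in *htb1-D67N* and 147, 95 and 257 counts in WT (at least 196-fold lower). *mrpl22*, a mitochondrial ribosomal protein gene, had 3, 3 and 18 counts in *htb1-D67N* and 169, 134 and 88 counts in WT (log2 fold change -4.31 ± 0.51, and -5.49 without the third *htb1-D67N* library). In each the counts were at or near 0 in *htb1-D67N*. *uga1* and *ucp6* lie wholly, and *mrpl22* by 92.9%, inside an antisense gene. These partners were higher in *htb1-D67N*, with log2 fold changes of 1.27 for *SPAC14C4.01c*, 1.04 for *spo12* and 0.92 for *SPCC1739.01*. *SPBC4B4.12c* had 0, 0 and 9 counts in *htb1-D67N* and 52, 33 and 48 counts in WT, and its partner *SPBC4B4.11* had a log2 fold change of 1.16. Over all tested genes 9.83% lay at least 50% inside an antisense gene, against 10.6% of the genes called lower and 7.44% of those called higher. *SPCC576.19c*, annotated as dubious, had 0 counts in *htb1-D67N* and 18, 11 and 21 counts in WT (at least 19.6-fold lower).

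Other large falls had no such overlap. *SPAC1039.02*, a predicted phosphatase gene, was at 18.2, 21.7 and 22.5 CPM in *htb1-D67N* and at 248, 223 and 151 CPM in WT (-3.32 ± 0.21, adjusted p = 1.65e-06). *SPBC36.01c*, a predicted spermidine transporter gene, was at 1.68, 1.28 and 1.44 CPM in *htb1-D67N* and at 10.7, 21.9 and 14.9 CPM in WT (-3.43 ± 0.29, adjusted p = 1.19e-05). *SPAC1B3.02c*, a predicted transcription elongation factor gene of the Elf1 family, was at 3.26, 4.07 and 5.19 CPM in *htb1-D67N* and at 23.6, 23.1 and 24 CPM in WT (-2.49 ± 0.19, adjusted p = 5.69e-06). In these genes the WT libraries were several times above every *htb1-D67N* library. *SPBC23G7.10c*, a predicted flavin oxidoreductase gene, owed its call to the third WT library, with 22, 30 and 27 counts in *htb1-D67N* and 19, 19 and 595 counts in WT. Its log2 fold change of -3.08 ± 1.05 (adjusted p = 0.0418) became 0.16 without that library, and it was not called with the replicate number as a block.

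To see which differences were particular to *htb1-D67N*, its libraries were set against the mean of the other 5 H2B mutants, without WT. This mean was taken over log levels, so it can lie below the mean of the CPM values. Of 5023 genes tested 144 (2.87%) were higher and 140 (2.79%) lower in *htb1-D67N* than in the other mutants. Genes called against WT and against the other mutants in the same direction numbered 118 higher (2.43% of the genes tested in both) and 36 lower (0.741%). The 118 were 22.5% of the genes above WT and 81.9% of those above the other mutants, and the 36 were 16.5% of the genes below WT and 25.7% of those below the other mutants. Both comparisons use the same *htb1-D67N* libraries. Libraries of *htb1-G52D* and *htb1-P102L*, both listed as *ura4-D18*, also went against that genotype. Scaled over all 24 libraries, *ura4* ran from 0.0544 to 40.2 CPM in *htb1-G52D* and from 0 to 45.4 CPM in *htb1-P102L*. A total of 4 genes were called higher than WT and lower than the other mutants, namely *SPAC23H3.15c*, *nst1*, *fab1* and *SPCC338.18*, which were chosen for this after their values were seen. The call of *fab1* against WT (log2 fold change 1.23) was lost without the third WT library (0.96) and with a gene-length offset. *fab1* lies 99% inside the antisense gene *SPBC6B1.10*.

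*osr1* was highest in *htb1-D67N* with a mean of 64.5 CPM (from 53.4 to 79 in its libraries, scaled over all 24 libraries), against 23.1 CPM in *htb1-E112K*, 14.8 CPM in *htb1-G52D*, 3.5 CPM in *htb1-E75Q*, 2.03 CPM in *htb1-P102L*, 2.02 CPM in *htb1-E34K* and 1.13 CPM in WT. No library of another mutant exceeded 30.4 CPM, and the log2 fold change over the mean of their log levels was 3.57 ± 0.19 (adjusted p = 1.27e-09). *gst2* averaged 356 CPM in *htb1-D67N*, against 185 CPM in *htb1-G52D*, 183 CPM in *htb1-E112K*, 101 CPM in *htb1-E75Q*, 47.9 CPM in *htb1-P102L*, 44.4 CPM in *htb1-E34K* and 43.6 CPM in WT. Every *htb1-D67N* library was above the highest of the other mutants for both genes, and *htb1-P102L* and *htb1-E34K* had the lowest means of the mutants for both.

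*htb1* was also higher in *htb1-D67N* than in the other mutants on average (log2 fold change 2.26 ± 0.20, adjusted p = 4.44e-07). Its mean was 10727 CPM in *htb1-D67N*, against 6554 CPM in *htb1-E75Q*, 5455 CPM in *htb1-E112K* and 1553 CPM in *htb1-P102L*, but the lowest *htb1-D67N* library, at 8097 CPM, was below the highest *htb1-E75Q* library, at 9009 CPM. All *htb1-D67N* libraries were above all libraries of the other mutants for 125 of 5023 tested genes (2.49%), among them *mug14*, *prl65*, *ght3*, *gcs1*, *hsp3104*, *cdt1*, *orc1*, *fus1* and *exg1*, which were also called, with log2 fold changes over the other mutants of 3.35 for *ght3* and 1.09 for *orc1*. The part of the h- mating type of *htb1-G52D* and *htb1-P102L* in the difference of *fus1* was not tested. Of the 25 antioxidant genes 5 were called higher and 1 lower in both comparisons, and of the 16 iron genes 4 higher. Over all genes tested in both, 2.43% were called higher and 0.741% lower. Not all of these were highest in *htb1-D67N*. The means of *srx1*, *shu1* and *str3* were 14.5, 2.98 and 3.83 CPM in *htb1-E112K*, against 10.2, 2.48 and 1.53 CPM in *htb1-D67N*. *fio1* went the other way, with 30.8 CPM in *htb1-E112K* and 51.2 CPM in *htb1-D67N*.

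Against the other mutants 0 of the 10 general stress genes and 0 of the 19 heat shock genes were called by edgeR or DESeq2. Over all genes tested 2.87% were called higher and 2.79% lower, so lists of this size would hold few calls or none. The list medians were 0.08 and 0.47, against -0.03 over all genes. At an unadjusted p under 0.05 these lists had 2 and 9 genes higher and 1 gene each lower. Of 4861 genes tested in both comparisons 831 were higher and 762 lower by that measure. *hsp16* averaged 373 CPM in *htb1-D67N*, against 417 CPM in *htb1-E112K*, 367 CPM in *htb1-G52D*, 327 CPM in *htb1-E75Q*, 251 CPM in *htb1-P102L*, 70.2 CPM in *htb1-E34K* and 41.6 CPM in WT. Of the other mutants all but *htb1-E34K* were several times above WT, and the difference of *htb1-D67N* from the mean of the other mutants, 0.61 ± 0.33, did not pass the test (adjusted p = 0.215). *gal10* averaged 13.6 CPM in *htb1-D67N*, against 9.87 to 20.5 CPM in the other mutants and 0.766 CPM in WT (log2 fold change over the other mutants -0.03 ± 0.39, adjusted p = 0.97). Ribosomal protein genes had a median of -0.18 against the other mutants, with 1 of 140 called higher and 0 lower by edgeR (0 lower with DESeq2, and 7 lower at an unadjusted p under 0.05).

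Several genes high in *htb1-D67N* were also high in *htb1-E112K*. *SPAC11D3.01c* averaged 40.3 CPM in *htb1-D67N*, against 56.2 CPM in *htb1-E112K* and 6.86 CPM in *htb1-G52D*, the next mutant. *mei2* averaged 9.06 CPM in *htb1-D67N*, against 15.5 CPM in *htb1-E112K* and at most 2.33 CPM in the other mutants. *caf5* averaged 117 CPM in *htb1-D67N* and 109 CPM in *htb1-E112K*, and *gpd3* 8974 CPM in *htb1-D67N* and 7564 CPM in *htb1-E112K*. These genes were called against the mean of the other mutants, but *htb1-D67N* and *htb1-E112K* libraries overlapped for *SPAC11D3.01c*, *caf5* and *gpd3*, and for *mei2* the *htb1-D67N* libraries, at 8.15 to 10.2 CPM, were all below the *htb1-E112K* libraries, at 12.5 to 18.1 CPM. No test of *htb1-D67N* against *htb1-E112K* alone was made.

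Among the genes lower in *htb1-D67N* than in the other mutants as well as in WT were *ucp6*, *SPBC36.01c* and *SPAC1B3.02c*. *ucp6* had 0 counts in *htb1-D67N*, against means from 5.96 CPM in *htb1-E112K* to 30.9 CPM in *htb1-E75Q* and 9.26 CPM in WT. It was detected in every library of the other mutants (adjusted p = 1.89e-05). *SPBC36.01c* had a log2 fold change over the other mutants of -2.80 ± 0.32 (adjusted p = 7.14e-06). *SPAC1B3.02c* averaged 4.59 CPM in *htb1-D67N*, against 16.2 CPM in *htb1-E112K*, the lowest of the other mutants, and 27.2 CPM in WT (log2 fold change over the other mutants -2.52 ± 0.22, adjusted p = 4.14e-07). *arg7*, the argininosuccinate lyase gene, averaged 2.29 CPM in *htb1-D67N*, against 5.17 to 11.8 CPM in the other mutants and 5.92 CPM in WT (-1.78 ± 0.18, adjusted p = 1.82e-06). *sgf73* averaged 3.44 CPM in *htb1-D67N*, against 5.81 to 10.4 CPM in the other mutants and 8 CPM in WT (-1.25 ± 0.18, adjusted p = 7.53e-05). For all 5 of these genes every *htb1-D67N* library was below every library of the other mutants, as was the case for 2.63% of the genes tested. *uga1* differed from them, since it was also at 0 in 7 of the 15 libraries of the other mutants.

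**Figure D4:**
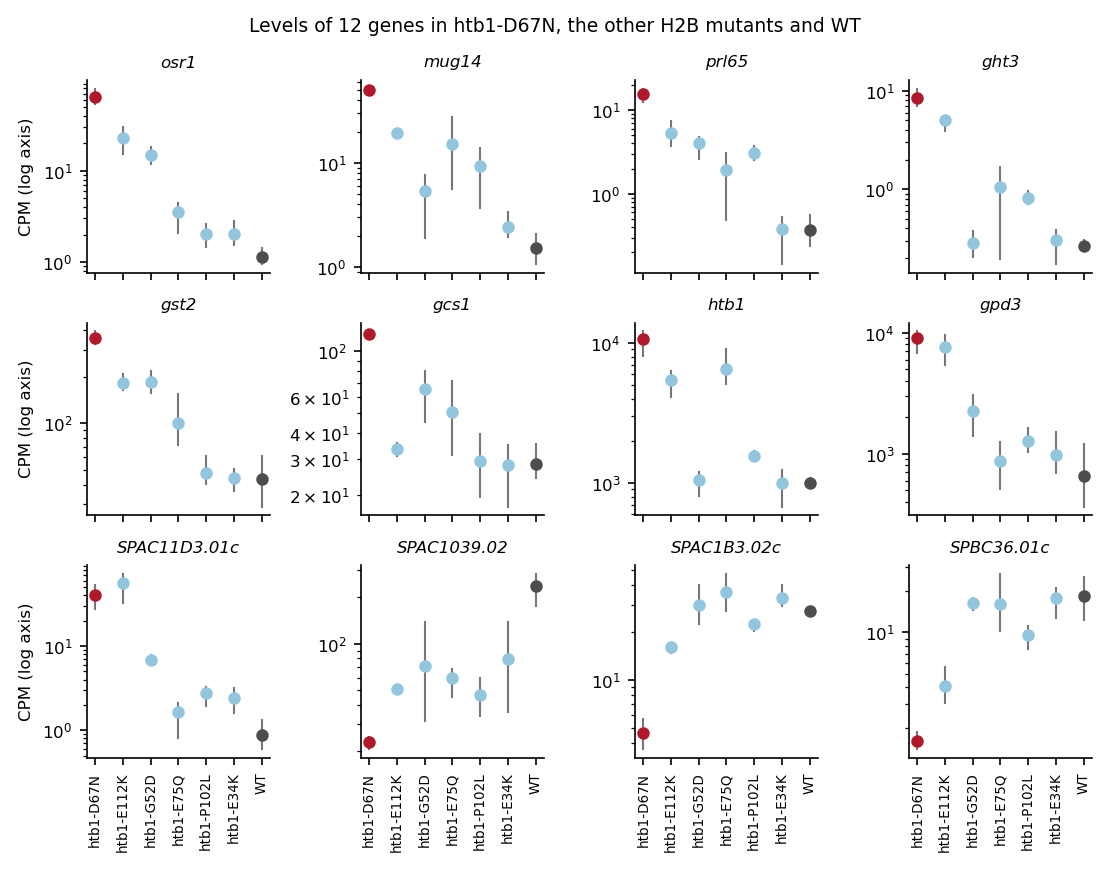
Level of 12 genes in *htb1-D67N*, the other 5 H2B mutants and WT in CPM on a log axis; points are means of 3 libraries and bars run from the lowest to the highest library. *osr1* and *gst2* are highest in *htb1-D67N* (64.5 and 356 CPM), and *SPAC1B3.02c* is lowest there (4.59 CPM). The *gpd3* libraries of *htb1-D67N* (mean 8974 CPM) and *htb1-E112K* (mean 7564 CPM) overlap.

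Genes called higher often stood next to each other on the chromosome. Gene order was taken from RefSeq's annotation of the assembly ASM294v3, and this pattern was chosen after the values were seen. Of 499 genes called higher and placed in that order, 176 (35.3%) had a neighbouring tested gene that was called higher as well, against 17.3% of genes that were not called higher. For genes called lower it was 31 of 216 (14.4%), against 8.56% of the genes not called lower. There were 17 runs of 3 or more genes called higher and 1 such run of genes called lower.

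The longest run had 9 genes, *pho1*, *fub2*, *SPBPB2B2.01*, *mug180*, *SPBPB2B2.05*, *SPBPB2B2.06c*, *SPBPB2B2.08*, *pan5* and *gal7*, with log2 fold changes from 1.09 for *pan5* to 3.83 for *SPBPB2B2.06c*. *SPBPB2B2.06c* was at 18.1, 21.4 and 20.5 CPM in *htb1-D67N* and at 2.13, 1.29 and 0.836 CPM in WT (adjusted p = 4.77e-06), and it was also above the mean of the other mutants (3.36 ± 0.35, adjusted p = 2.99e-06). *pho1*, the secreted acid phosphatase gene at the edge of the run, was at 694, 715 and 555 CPM in *htb1-D67N* and at 285, 262 and 127 CPM in WT (1.54 ± 0.28, adjusted p = 0.0018). Both were apart from WT. A run of 6 held *ght3*, *shu1* and *str3* with *SPAPJ695.02*, *SPAC1F8.04c* and *isp3*, so that some of the largest rises of the comparison were neighbours. *SPAC1F8.04c*, a predicted hydrolase gene, was at 28.6, 32.9 and 22.6 CPM in *htb1-D67N* and at 2.18, 1.61 and 3.39 CPM in WT (3.53 ± 0.26, adjusted p = 5.05e-06). Another run of 6 went from *SPAC869.09* (3.88) over *pcm2* (1.29), the alpha-galactosidase gene *mel1* (3.49), *SPAC869.06c* and *SPAC869.05c* (1.61) to *SPAC869.03c* (2.90). A run of 5 began with *eno102* and held *SPBPB21E7.11*, at 5.79, 6.18 and 5.51 CPM in *htb1-D67N* and at 0.364, 0.0537 and 0.132 CPM in WT (4.96 ± 0.41, adjusted p = 1.16e-05).

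**Figure D5:**
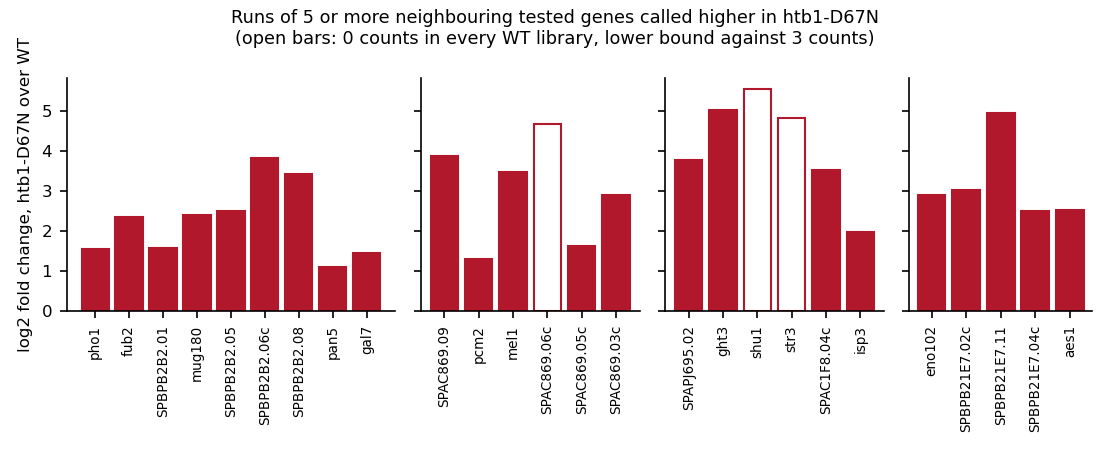
Log2 fold change of *htb1-D67N* over WT for the genes of the 4 longest runs of neighbouring genes called higher, in gene order. Open bars are lower bounds for genes with 0 counts in WT, and no error bars are drawn. All genes of the runs lie at or above 1.09, the value of *pan5*.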

How the data were processed

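Poly(A)-selected RNA of 3 libraries per genotype was sequenced, and the replicates were independent biological repeats. The authors trimmed reads with fastp, removed rRNA reads with Bowtie2, aligned to Ensembl release 45 with HISAT2 and assembled with StringTie. Their notes also name RSEM and DESeq2. The deposited tables hold whole-number counts per gene, which were used, as well as FPKM-based means, fold changes and p-values of the authors' own comparisons, which were not. Strand use and the counting program are not given in the sources used here. Counts were tested with edgeR 4.0.16 in R 4.3.3 (filterByExpr, TMM, glmQLFit and glmQLFTest, Benjamini-Hochberg adjustment over all genes tested). CPM values are scaled by TMM over the 6 libraries, or over all 24 where other mutants are shown. Members, 41 gene lists and tests were chosen with earlier results of these data known.

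The genes named were *htb1*, *hta1* and strain markers, the 10 largest rises and the 10 largest falls called in all 6 leave-one-out fits, up to 3 called members per list and direction along with members central to a list, and the 5 largest rises and the 5 largest falls called in both comparisons. A gene that this rule named is not reported here. Any other gene was named to complete a count or a run. The runs of neighbouring genes were chosen after their values were seen. A gene with 0 counts in one genotype was compared with a floor of 3 counts over that group, which covers counting error only. RefSeq's ASM294v3 served for names (5109 genes matched), gene length, overlap and gene order. No coordinates or sequences are printed.

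Deviations from the genotype means had r = 0.128, 0.128 and 0.3 across genes for same-numbered libraries. For libraries of different numbers r was -0.269 to 0.16, so the ranges overlapped and did not settle whether the replicate number pairs the libraries. The main fit did not pair them, and a fit with the replicate number as a block was run as an alternative. Replicate libraries differed by more than sampling noise (chi-square per gene from 8.55 to 130). On data simulated at the real depths, 98% of 200 genes changed by 2 on the log2 scale were called for the comparison with WT (5 false calls among 4838 genes) and 97% for that with the other mutants (2 false calls among 5002 genes). The changed genes were drawn from those above a minimum mean count, with as many rises as falls. The simulation thus did not cover changed genes with few counts or an uneven split of rises and falls. Alternatives were DESeq2 1.42.0, total counts, a gene-length offset, no filter on low counts, a minimum of 10 counts per library, all 24 libraries in one fit, adjusted p alone, the block, and leaving out each library.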

Additional observations from a re-analysis of the deposited data

How the results depend on the processing

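Against WT the genes called higher and lower numbered 463 and 272 with DESeq2, 527 and 229 without a filter, 438 and 191 with a minimum of 10 counts per library, 403 and 272 with a gene-length offset and 451 and 284 with all 24 libraries in one fit. With adjusted p alone they were 992 and 750, and with total counts 879 and 48. Leaving out 1 library gave 456 to 511 higher and 224 to 287 lower. With the replicate number as a block they were 535 and 223, with 726 genes called in both fits and 0 in opposite directions. Of the named genes the block ended the call of *pma1* and *SPBC23G7.10c* and of no other. The log2 fold change of *SPBC23G7.10c* lay between -3.64 and 0.16 when 1 library was left out, with 0.16 without WT replicate 3. Against the other mutants the counts were 146 and 156 with DESeq2, 105 and 95 with total counts and 141 and 135 with the block, and from 125 to 153 higher and from 115 to 166 lower when 1 library was left out. With 3 libraries a group and 1 listed strain a genotype, the p-values measure the spread between cultures labelled as the same strain. In WT this spread includes the third library, which went against its listed genotype. Genes with few counts are the least certain.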
